A study of Homo sapiens with 48 samples.

Results

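The genes of 2 families of RNA-binding splicing factors were followed in neuroblastoma cells: the SR proteins with their TRA2 relatives, and the heterogeneous nuclear ribonucleoproteins (hnRNPs). All gene names of the form SRSF, TRA2A, TRA2B or HNRNP plus letters and digits were taken from the count tables, which gave 40 of 19923 genes, 14 of them SR and 26 hnRNP. Of these, 14 SR and 22 hnRNP genes had enough counts to be tested; the 4 left out were the HNRNPC-like genes HNRNPCL1, HNRNPCL2, HNRNPCL3 and HNRNPCL4, which lay at or near 0. The cells were Kelly and NGP, established MYCN-amplified human neuroblastoma lines of genotype WT, with no transgene or edit in the labels. They received 8 µM STM2457, an inhibitor of the RNA m6A methyltransferase METTL3, or its solvent DMSO for 3 or 6 days. Actinomycin D, which stops transcription, followed at 10 µg/ml, and cells were taken after 0, 3 or 6 h of it, so all 0 h libraries come from cells with no time under it. This gave 24 groups of 2 poly(A) RNA-seq libraries, 48 in all. The labels do not say whether the 2 libraries of a group are separate cultures, so the p-values measure only the spread between these libraries, which may be technical.

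SR proteins carry an RNA recognition motif and a domain rich in arginine and serine. They bind exonic enhancers, recruit the splicing machinery and help export mRNA, and kinases of the CLK and SRPK families phosphorylate them. hnRNPs coat nascent transcripts, often bind silencers, and also act in export, translation and mRNA stability. Many genes of both families control their own output through exons that make the transcript a substrate of nonsense-mediated decay. METTL3 places m6A on adenosines in a short consensus of which GGACT is the common form, often near stop codons, and m6A is read by several proteins, HNRNPA2B1 and HNRNPC among them by published accounts.

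Depth was 13807701 to 19774227 fragments in genes per Kelly library and 11139550 to 21942238 per NGP library. The 40 genes took 1.32 to 1.87% of these fragments in Kelly and 1.58 to 2.26% in NGP. Markers of adrenergic neuroblastoma averaged over 1 CPM (a counts-per-million value) for 13 of 13 genes in Kelly and 12 of 13 in NGP, where TH averaged 0.750 CPM. The summed level of the mesenchymal or fibroblast list was 150.4 to 247 CPM in Kelly and 336 to 495 CPM in NGP. The summed immune, epithelial and endothelial lists stayed at or under 9.69 CPM in each library of either line, and PTPRC was at 0 in NGP. METTL3 mRNA did not pass the test under STM2457 in any line and duration (log2 changes 0.0611, 0.214, 0.0781 and 0.0583; adjusted p 0.743 or above), and no readout of m6A was used here.

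Per kilobase of exon and without actinomycin D, hnRNP transcripts were the most abundant of the members. HNRNPA1, which shuttles between nucleus and cytoplasm and favours exon skipping, stood first, with 351 ± 17.2 CPM per kb in Kelly and 519 ± 26.0 in NGP (SD, n = 4 DMSO libraries at 0 h). These are 2 libraries after 3 days and 2 after 6 days, so the SD also holds the difference between durations. The next hnRNPs were HNRNPA2B1 (189 ± 27.8 CPM per kb) and HNRNPAB (172 ± 34.7) in Kelly, which overlapped across libraries, and HNRNPAB (205 ± 22.3) and HNRNPA2B1 (182 ± 16.3) in NGP, which overlapped too. The SR gene with the highest level was SRSF7, a factor of splicing and mRNA export, at 51.4 ± 10.6 CPM per kb in Kelly and 60.9 ± 2.93 in NGP. SRSF12 had the lowest level of the genes tested, with 5.13 ± 1.10 CPM per kb in Kelly and 4.18 ± 0.605 in NGP. The lines shared most of this order, with HNRNPH2 an exception, at 58.6 ± 6.54 CPM per kb in Kelly and 17.4 ± 2.18 in NGP. Counts of HNRNPA1L2 and HNRNPA1P48 are uncertain because both are near copies of HNRNPA1. Some members share exon bases with other genes and no strand setting is given for the counting, among them HNRNPUL2 (44.3% of its bases), SRSF9 (46.7%), SRSF2 (36.7%), SRSF1 (32.7%), HNRNPH2 (15.8%), HNRNPU (15.6%) and SRSF6 (13.4%).

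STM2457 changed few of these transcripts in the absence of actinomycin D. Those that passed the test were mostly hnRNPs, of which 22 were tested beside 14 SR genes. At an adjusted p under 0.05, 4 of 22 hnRNP genes passed in Kelly at 3 days (2 higher, 2 lower), against 1.68% of all 16759 genes tested there (0.579% higher, 1.1% lower). After 6 days Kelly had 8 (7 higher, 1 lower), against 3.97% of all genes (2.7% higher, 1.26% lower). NGP had 4 after 3 days, all lower, against 3.7% of 14661 genes (1.25% higher, 2.45% lower), and 3 after 6 days, all higher, against 7.99% (4.45% higher, 3.55% lower). On the ERCC scale the hnRNP counts became 17 higher and 0 lower (Kelly 3 days), 0 and 7 (Kelly 6 days), 3 and 1 (NGP 3 days) and 1 and 0 (NGP 6 days), so the Kelly 6 days and NGP 3 days counts turned direction. Of all genes, 22.2, 6.98, 3.79 and 7.11% passed on that scale, 3694, 99, 418 and 462 as higher and 33, 1071, 138 and 580 as lower. Without any 1 of the libraries compared, 1 to 2, 2 to 3, 1 to 3 and 1 to 4 members of either family passed, beside 4, 8, 4 and 5 with all libraries. None of the 14 SR genes passed in Kelly at 3 or 6 days or in NGP at 3 days, although 1, 2 and 1 had an unadjusted p under 0.05, and neither DESeq2 nor limma-voom called an SR gene in those 3 comparisons. The ERCC scale called 11 SR genes higher in Kelly after 3 days, 2 lower in Kelly after 6 days and 0 in NGP after 3 days. In NGP at 6 days 2 of 14 SR genes passed, a share of 14.3% beside 13.6% of hnRNP genes. The SE differed by gene, so changes of like size could differ in outcome. In Kelly at 6 days SRSF9 (0.24 ± 0.09) and SRSF7 (0.26 ± 0.11) did not pass, while HNRNPUL1 (0.23 ± 0.07) did. The median log2 change was 0.02, 0.10, -0.02 and 0.01 for SR genes and -0.10, 0.09, -0.13 and 0.03 for hnRNP genes, in the order Kelly 3 and 6 days, NGP 3 and 6 days; the median of all genes lay between 0 and 0.020. With libraries scaled to the ERCC spike-ins, RNAs of known sequence added to each sample, the median of all genes moved to 0.38, -0.21, 0.10 and -0.02. The SR medians became 0.42, -0.15, 0.08 and -0.03 and the hnRNP medians 0.30, -0.16, -0.03 and -0.01, so the SR median of Kelly 3 days and the hnRNP median of NGP 3 days kept their signs and the others changed. All changes below are relative to the typical gene of the library. In these bulk libraries, fewer cells with a transcript and less of it per cell cannot be told apart.

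HNRNPF (chr10:43385617-43409166, minus strand, GRCh38), a factor that binds runs of G in pre-mRNA, rose in 3 of the 4 comparisons. In Kelly at 3 days it read 250.3 and 256 CPM in DMSO and 318 and 323 CPM in STM2457. At 6 days the values were 189 and 184 CPM in DMSO and 248 and 253 CPM in STM2457. NGP had 271 and 257 CPM in DMSO against 321 and 298 at 3 days, and 218 and 253 against 286 and 289 at 6 days. Every STM2457 library lay above both DMSO libraries of its line and duration. Here and below, a lack of overlap describes the same 2 libraries a group that the test used, and adds no support of its own. The log2 changes were 0.34 ± 0.09 (SE; adjusted p = 0.0198) and 0.43 ± 0.09 (adjusted p = 0.000392) in Kelly at 3 and 6 days. In NGP they were 0.23 ± 0.08 (adjusted p = 0.0913), which did not pass, and 0.29 ± 0.08 (adjusted p = 0.00957). The Kelly 6 days call held without each of its libraries in turn, but not with ERCC scaling (0.17, adjusted p = 0.299). The Kelly 3 days call was lost without any single library of its 4 (0.32 to 0.36, adjusted p 0.144 to 0.262). The NGP 6 days call was lost without DMSO replicate 1 (0.18, adjusted p = 0.348), STM2457 replicate 1 (0.30, adjusted p = 0.0578) or STM2457 replicate 2 (0.28, adjusted p = 0.0857), and with ERCC scaling (0.25, adjusted p = 0.0763).

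METTL3 places m6A in a consensus of which GGACT is a common form. Searched on the sense strand of 1 GENCODE v44 transcript per gene (GRCh38; the counts used release 33 on the same build), GGACT occurred in 12 of 14 SR and 22 of 25 hnRNP transcripts, against 87.8% of 20020 transcripts. The sites of HNRNPF are shown because it had 3 calls under STM2457. They lie on the minus strand in the 5′ UTR (site 1, chr10:43409142-43409162) and the coding sequence (site 2, chr10:43387524-43387544, and site 3, chr10:43387232-43387252), with GGACT in capitals.
HNRNPF site 1: tggaagcaGGACTgcgccgcg
HNRNPF site 2: ggcttcgaGGACTcccatttg
HNRNPF site 3: ccggcccgGGACTgccaggag
No m6A was measured at these sites, and a match describes only the letters.

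HNRNPA0, an intronless hnRNP that binds AU-rich elements, moved the same way in Kelly. It read 165 and 169 CPM in DMSO and 211 and 213 CPM in STM2457 at 3 days, and 131 and 141 against 178 and 184 CPM at 6 days. The groups did not overlap, and the log2 changes were 0.35 ± 0.10 (adjusted p = 0.0466) and 0.41 ± 0.10 (adjusted p = 0.00383). In NGP the values were 198 and 212 CPM against 238 and 251 at 3 days and 197 and 226 against 231 and 236 at 6 days, log2 changes 0.25 ± 0.08 and 0.14 ± 0.08 that did not pass (adjusted p = 0.0809 and 0.407). The Kelly 3 days call was lost without any single library (0.33 to 0.36, adjusted p 0.242 to 0.380) and with RLE size factors (0.34, adjusted p = 0.0581). The Kelly 6 days call was lost without DMSO replicate 1 (0.36, adjusted p = 0.146), without STM2457 replicate 2 (0.36, adjusted p = 0.133) and with ERCC scaling (0.16, adjusted p = 0.467).

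HNRNPA1 fell slightly in 3 of the 4 comparisons, with the opposite sign in Kelly at 3 days under ERCC scaling (0.23). In Kelly it read 1696 and 1886 CPM in DMSO and 1523 and 1656 CPM in STM2457 at 3 days, and 1736 and 1837 against 1566 and 1638 CPM at 6 days. In NGP it read 2496 and 2566 against 2284 and 2318 CPM at 3 days and 2764 and 2745 against 2636 and 2752 CPM at 6 days. Only the NGP 6 days groups overlapped. The log2 changes were -0.17 ± 0.05 (adjusted p = 0.0192), -0.16 ± 0.05 (0.0219), -0.14 ± 0.03 (0.00252) and -0.03 ± 0.03 (0.714). The calls were lost without DMSO replicate 2 of the group (-0.09, -0.12 and -0.12 in Kelly at 3 and 6 days and NGP at 3 days; adjusted p = 0.877, 0.515 and 0.114). They were also lost without STM2457 replicate 1 (-0.11, -0.14 and -0.13; adjusted p = 0.857, 0.261 and 0.0810), and in NGP at 3 days with ERCC scaling (-0.04, adjusted p = 0.777).

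HNRNPDL, a paralog of HNRNPD, passed at 6 days in both lines. It read 363 and 385 CPM in DMSO and 427 and 465 CPM in STM2457 in Kelly (0.25 ± 0.07, adjusted p = 0.02). In NGP the values were 626 and 599 against 698 and 693 CPM (0.18 ± 0.06, adjusted p = 0.0222). Neither pair of groups overlapped, while ERCC scaling left -0.00043 in Kelly and 0.14 (adjusted p = 0.214) in NGP. At 3 days it read 559.9 and 539 against 548 and 542 CPM in Kelly and 616 and 655 against 703 and 701 CPM in NGP, with log2 changes of -0.01 ± 0.07 and 0.14 ± 0.06 that did not pass (adjusted p = 1 and 0.162). The Kelly call was lost without DMSO replicate 1 (0.21, adjusted p = 0.353), DMSO replicate 2 (0.30, 0.0578) or STM2457 replicate 2 (0.17, 0.610). The NGP call was lost without DMSO replicate 2 (0.15, 0.229), STM2457 replicate 1 (0.18, 0.144) or STM2457 replicate 2 (0.19, 0.106).

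The other hnRNP calls each came from 1 line and duration, and 3 of them held without each library in turn. HNRNPR, which binds mRNA in neurons and in the nucleus, read 441 and 427 CPM in DMSO and 584 and 577 CPM in STM2457 in NGP at 6 days (0.42 ± 0.06, adjusted p = 7.84e-09; 0.38 with ERCC scaling). HNRNPD, known as AUF1 for its binding to AU-rich elements, read 683 and 690.1 against 528 and 562 CPM in NGP at 3 days (-0.33 ± 0.06, adjusted p = 1.28e-05; -0.23 with ERCC scaling). HNRNPH1, a G-run binder related to HNRNPF, read 606 and 653 against 489.9 and 500.4 CPM in Kelly at 3 days (-0.35 ± 0.07, adjusted p = 0.000125), but its sign turned with ERCC scaling (0.05). The groups did not overlap for any of these 3 genes, in the same libraries that gave the calls.

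In Kelly at 6 days HNRNPLL (0.63 ± 0.19, adjusted p = 0.031), HNRNPL (0.30 ± 0.10, 0.0441), HNRNPUL1 (0.23 ± 0.07, 0.0423) and HNRNPA2B1 (0.16 ± 0.04, 0.0151) also passed. HNRNPLL read 34.1 and 33.5 CPM in DMSO and 49.7 and 54.8 CPM in STM2457. These 4 calls were not stable to single libraries. HNRNPLL (0.53 to 0.68, adjusted p 0.111 to 0.358), HNRNPUL1 (0.14 to 0.27, 0.0683 to 0.769) and HNRNPA2B1 (0.11 to 0.17, 0.0902 to 0.565) lost the threshold without any 1 of the 4 libraries. HNRNPL lost it without DMSO replicate 2 (0.16, adjusted p = 0.868), STM2457 replicate 1 (0.37, 0.0666) or STM2457 replicate 2 (0.19, 0.740). With ERCC scaling HNRNPUL1 (-0.02) and HNRNPA2B1 (-0.09) changed sign. In NGP at 3 days HNRNPAB (-0.24 ± 0.06, adjusted p = 0.0176) and HNRNPH3 (-0.25 ± 0.07, 0.0307) passed as lower. HNRNPAB lost the threshold without DMSO replicate 2 (-0.20, adjusted p = 0.273) or STM2457 replicate 1 (-0.18, 0.353). HNRNPH3 lost it without DMSO replicate 1 (-0.17, 0.555), STM2457 replicate 1 (-0.23, 0.275) or STM2457 replicate 2 (-0.27, 0.124).

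Among SR genes, SRSF4 and SRSF6, close relatives with 2 RNA recognition motifs each, moved in opposite directions in NGP at 6 days. SRSF4 read 179.8 and 167 CPM in DMSO and 229 and 208 CPM in STM2457 (0.33 ± 0.09, adjusted p = 0.00477). SRSF6 read 165 and 133 against 109.9 and 123 CPM (-0.36 ± 0.10, adjusted p = 0.0171). Neither gene's groups overlapped, and both kept sign and call with ERCC scaling (0.29 and -0.40). SRSF4 lost the threshold without DMSO replicate 2 (0.28, adjusted p = 0.116) or STM2457 replicate 1 (0.26, 0.169), and SRSF6 without DMSO replicate 1 (-0.19, 0.550) or STM2457 replicate 1 (-0.28, 0.293). In NGP at 3 days SRSF4 read 259 and 217 against 219 and 229 CPM and SRSF6 131 and 125 against 144 and 155 CPM, log2 changes of -0.08 ± 0.09 and 0.22 ± 0.10. The corresponding Kelly changes were 0.25 ± 0.12 and 0.06 ± 0.12 at 3 days and 0.17 ± 0.12 and 0.06 ± 0.12 at 6 days, and none of these 6 passed (adjusted p 0.321 or above).

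**Figure D1:**
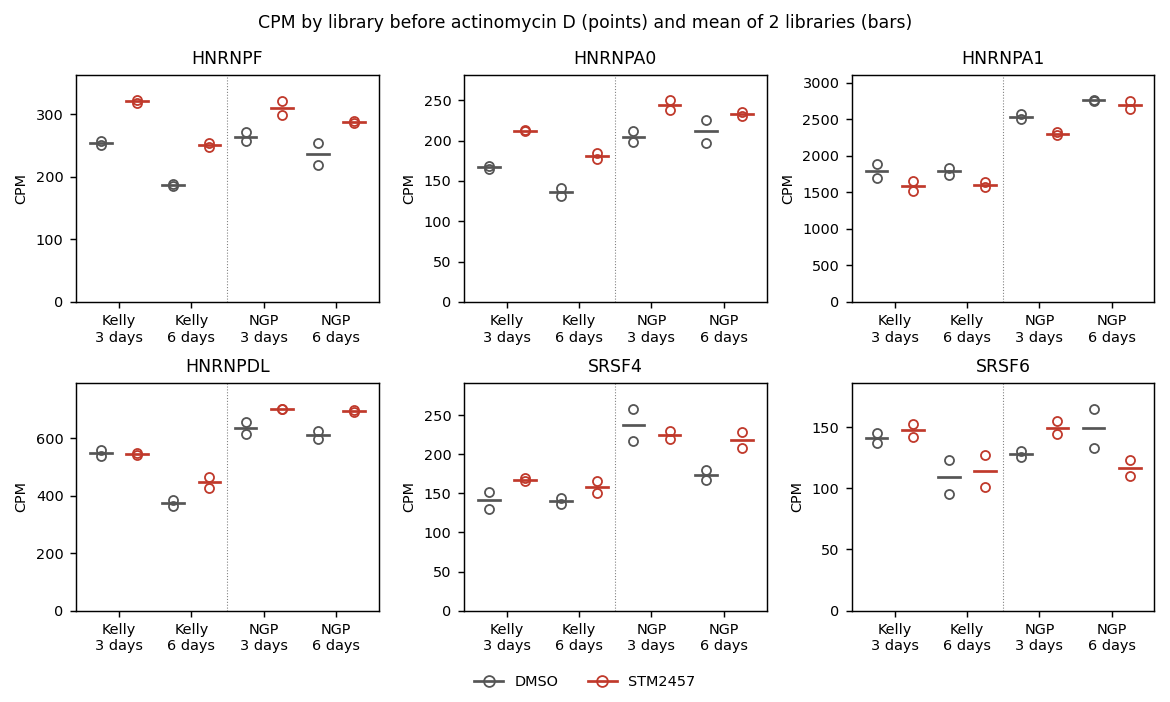
CPM of the 2 libraries of each group before actinomycin D (points) and their mean (bars) for 6 members, in DMSO and STM2457, by line and duration, on axes that start at 0. HNRNPF in STM2457 lies above DMSO in all 4 pairs of groups, HNRNPA1 lies below DMSO in both Kelly pairs and the first NGP pair, and SRSF4 and SRSF6 part in opposite directions in NGP at 6 days.

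**Figure D2:**
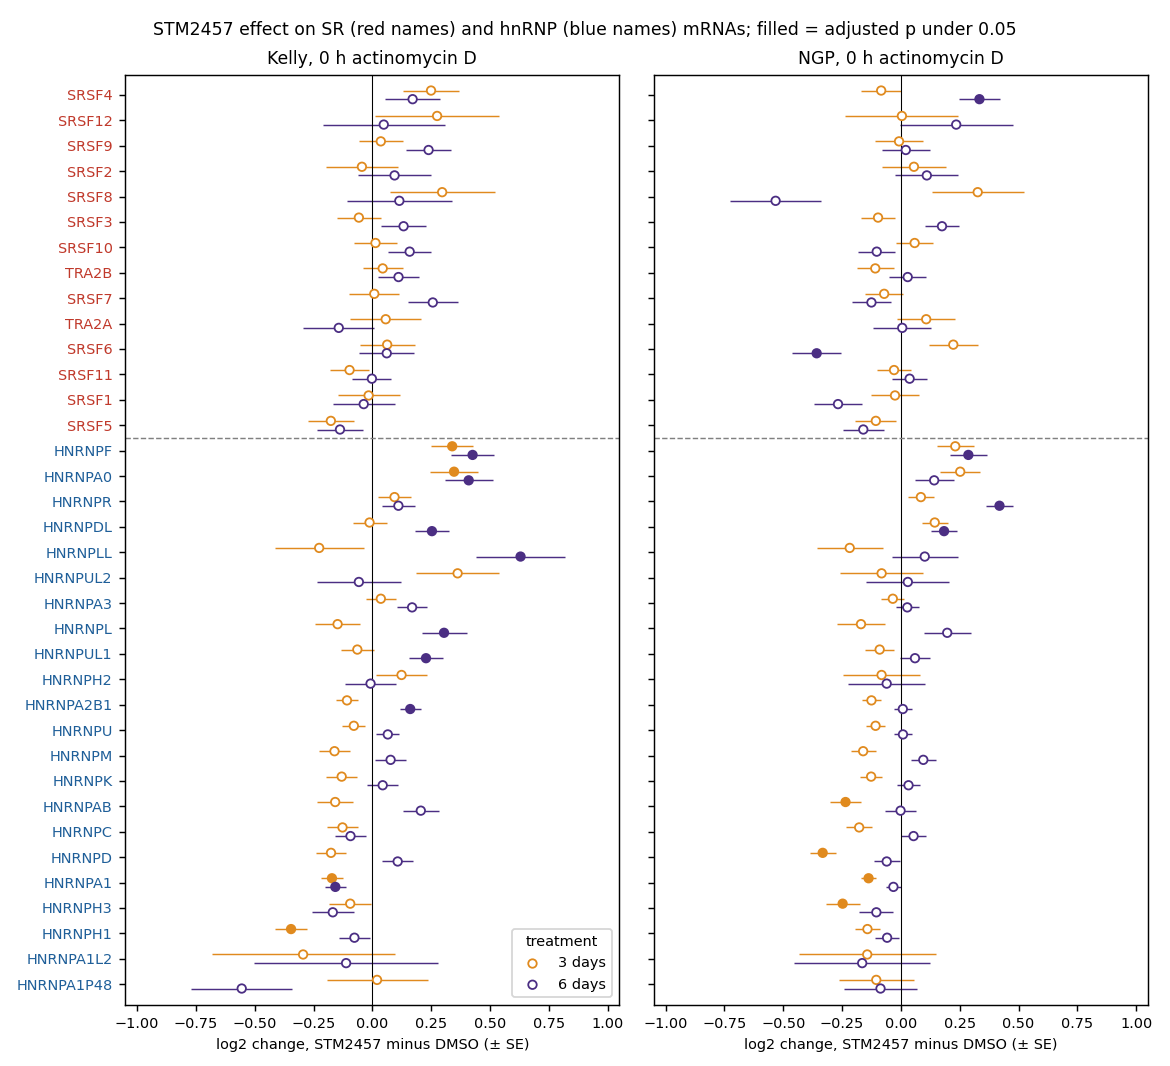
STM2457 minus DMSO log2 change at 0 h of actinomycin D for each tested member, by line and duration, with error bars of 1 SE and filled points at an adjusted p under 0.05. HNRNPF lies above 0 in all 4 comparisons (0.34, 0.43, 0.23 and 0.29), while SR genes scatter around 0 and pass only in NGP at 6 days.

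The effect of STM2457 differed between 3 and 6 days for some members. In NGP 5 genes passed the test of the difference (6 days minus 3 days), against 2.8% of all genes. HNRNPR (0.33 ± 0.08, adjusted p = 0.0035), SRSF4 (0.42 ± 0.12, 0.037), HNRNPD (0.27 ± 0.08, 0.0339) and HNRNPM (0.26 ± 0.07, 0.037) were higher at 6 days, and SRSF6 was lower (-0.58 ± 0.15, 0.0103). In Kelly HNRNPA2B1 alone passed (0.27 ± 0.06, adjusted p = 0.00809; 0.788% of all genes), and its sign turned with ERCC scaling (-0.38). Each of these 6 was lost without at least 1 library: HNRNPR without NGP DMSO 3 days replicate 2 (0.29, adjusted p = 0.0631), SRSF4 without any 1 of 5 of the 8 libraries (0.28 to 0.45, 0.0711 to 0.498), SRSF6 without any 1 of 4 (-0.55 to -0.41, 0.0753 to 0.251), HNRNPD without any 1 of 7 (0.23 to 0.28, 0.0663 to 0.284), HNRNPM without any 1 of 7 (0.22 to 0.29, 0.0506 to 0.230) and HNRNPA2B1 without any 1 of 5 (0.20 to 0.27, 0.0515 to 0.397). Between lines, no member passed the test of the difference (NGP minus Kelly) at 3 days, where 2 had an unadjusted p under 0.05, DESeq2 called 0 and 0.161% of all genes passed. At 6 days HNRNPR alone passed (0.33 ± 0.09, adjusted p = 0.0379; 1.75% of all genes), and it was lost without 7 of the 8 libraries (0.25 to 0.34, adjusted p 0.0788 to 0.351).

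Under actinomycin D the family medians differed, with no test between the families, while the values of their genes overlapped. With synthesis stopped, a transcript that outlasts the typical one takes a growing share of the library and a shorter-lived one a falling share. After 6 h in DMSO, 17, 14, 17 and 17 of 22 hnRNP genes had risen and 1 had fallen in each of Kelly 3 days, Kelly 6 days, NGP 3 days and NGP 6 days. Of all genes, 30.1, 26.5, 37.4 and 36.7% passed in either direction there, 14.4, 13.2, 19 and 18% as higher and 15.6, 13.3, 18.4 and 18.7% as lower. SR genes went both ways, with 3 higher and 5 lower of 14, 2 and 5, 7 and 1, and 4 and 3, but on the ERCC scale none was higher and 9, 14, 12 and 14 were lower. With library size alone the SR counts were 2 higher and 7 lower, 1 and 6, 2 and 3, and 0 and 4, against 28.6, 25.4, 35.7 and 36.4% of all genes in either direction. The median log2 change was 0.49, 0.28, 0.60 and 0.44 for hnRNP genes and -0.10, 0.06, 0.33 and 0.13 for SR genes, with all genes at 0, 0.051, -0.0082 and -0.047. Single hnRNP genes ran from -0.64 to 0.77, -0.46 to 0.68, -0.23 to 1.085 and -0.18 to 0.79. SR genes ran from -0.82 to 0.65, -0.81 to 0.58, -0.25 to 0.82 and -0.70 to 0.34. On the ERCC scale all genes had medians of -0.34, -1.18, -0.81 and -1.10, hnRNP genes 0.05, -1.0, -0.21 and -0.62, and SR genes -0.53, -1.22, -0.47 and -0.92. A rise here is a rise relative to the typical gene, and on the ERCC scale 4, 0, 0 and 0 hnRNP genes were higher and 5, 22, 15 and 22 lower. Of all genes, 31.4, 62.0, 54.9 and 67.4% passed on that scale, 521, 10, 34 and 46 as higher and 4744, 10379, 8014 and 9830 as lower. The SR median lay below the hnRNP median by 0.59, 0.23, 0.27 and 0.30, a difference that a shift shared by all genes leaves nearly unchanged (ranges of -0.67 to -0.49, -0.31 to -0.21, -0.34 to -0.25 and -0.38 to -0.25 without each library). The corresponding SR minus hnRNP differences of the STM2457 effect were 0.13, 0.01, 0.11 and -0.02. At 3 h the same order was present, with 16, 14, 16 and 14 hnRNP genes higher and none lower, and 2, 2, 5 and 1 SR genes higher and 5, 4, 0 and 0 lower (of all genes 19.9, 18.2, 24.1 and 21.4% in either direction, 10.6, 10.3, 12.8 and 11.5% higher and 9.37, 7.9, 11.3 and 9.89% lower).

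HNRNPA1 (chr12:54280193-54287088, plus strand, GRCh38) had the largest mean rise of the hnRNP genes over the 4 comparisons, relative to the typical gene. In Kelly at 3 days it went from 1696 and 1886 CPM at 0 h to 2456 and 2609 at 3 h and 2876 and 3116 at 6 h. In NGP at 3 days it went from 2496 and 2566 to 3684 and 3532 and 4401 and 4504 CPM. Each time point lay above the one before in both. At 6 days it went from 1736 and 1837 to 2875 and 2837 CPM in Kelly and from 2764 and 2745 to 4743 and 4790.0 CPM in NGP. The log2 changes over 6 h were 0.74 ± 0.05, 0.68 ± 0.05, 0.81 ± 0.03 and 0.79 ± 0.03 (largest adjusted p = 1.54e-31), and on the ERCC scale they were 0.31, -0.60, 0.01 and -0.26, of which the third did not pass (adjusted p = 0.817). Its near copy HNRNPA1P48, whose counts cannot be separated from HNRNPA1 with certainty, gave 0.63 ± 0.21, 0.52 ± 0.21, 1.08 ± 0.16 and 0.64 ± 0.15, with Kelly 6 days not passing (adjusted p = 0.0525). Its Kelly 3 days call was lost without replicate 2 at 0 h (0.53, adjusted p = 0.151) or at 6 h (0.61, 0.0573), and its 6 days signs turned with ERCC scaling (-0.75 and -0.41).

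HNRNPF was the hnRNP that fell in most comparisons. In Kelly DMSO libraries it went from 250.3 and 256 CPM at 0 h to 194 and 194 at 6 h after 3 days, and from 189 and 184 to 132 and 139 after 6 days. In NGP it went from 271 and 257 to 235 and 215 and from 218 and 253 to 212 and 203 CPM. In each group pair the 6 h libraries lay below both 0 h libraries. The log2 changes were -0.39 ± 0.09 (adjusted p = 0.000224), -0.46 ± 0.09 (1.07e-05), -0.23 ± 0.08 (0.017) and -0.18 ± 0.08 (0.0617, not passing). The NGP 3 days call was lost without replicate 1 at 0 h (-0.19, adjusted p = 0.145) or replicate 2 at 6 h (-0.20, 0.116), and NGP 6 days passed without replicate 1 at 0 h (-0.29, 0.0118). The other fall was that of HNRNPDL in NGP at 6 days, from 626 and 599 to 549 and 558 CPM (-0.15 ± 0.06, adjusted p = 0.0305), lost without replicate 1 at 0 h (-0.11, 0.203) or either 6 h library (-0.12 and -0.14, 0.198 and 0.121). HNRNPA1L2, at 15.2 and 19.4 CPM at 0 h and 12.2 and 9.98 CPM at 6 h in Kelly after 3 days, and HNRNPLL, at 51.9 and 58.1 and 56.0 and 38.7 CPM, passed in none of the 4 comparisons (-0.64, -0.23, -0.05 and -0.10, and -0.22, 0.09, -0.04 and 0.03; adjusted p 0.230 or above).

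SRSF7 (chr2:38743599-38751494, minus strand) had the lowest mean change of the SR genes, and its Kelly falls were the largest among SR genes. After 3 days in DMSO its Kelly values were 233 and 255 CPM at 0 h, 165 and 178 at 3 h and 136 and 140.4 at 6 h. After 6 days they were 174 and 169, 114 and 115 and 96.6 and 98.9 CPM. In NGP the 3 days values were 252 and 249, 239 and 233 and 244 and 241 CPM, and the 6 days values 255 and 229, 206 and 223 and 191 and 215 CPM. Each Kelly time point lay below the one before, while in NGP the 3 days values lay close together and both 6 h libraries after 6 days lay below those at 0 h. The log2 changes over 6 h were -0.82 ± 0.11 (adjusted p = 2.91e-11) and -0.81 ± 0.11 (7.01e-11) in Kelly, and -0.05 ± 0.08 (0.697) and -0.26 ± 0.08 (0.00831) in NGP. The Kelly calls held without each library, and the NGP 6 days call was lost without replicate 1 at 0 h (-0.18, adjusted p = 0.181) or at 6 h (-0.16, 0.244).

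The GGACT sites of SRSF7 are shown because its fall was the largest among SR genes in Kelly. They lie on the minus strand in the 5′ UTR (site 1, chr2:38751337-38751357), the coding sequence (site 2, chr2:38750015-38750035), the end of the coding sequence (site 3, chr2:38745127-38745147, 6 bases before the end of the stop codon) and the 3′ UTR (site 4, chr2:38744715-38744735, and site 5, chr2:38744424-38744444), with GGACT in capitals.
SRSF7 site 1: tgccgccgGGACTcttggcgg
SRSF7 site 2: cagtacgaGGACTggatggaa
SRSF7 site 3: gaaagaatGGACTgaagctct
SRSF7 site 4: atcttaagGGACTttgaaaat
SRSF7 site 5: gttaattaGGACTccccaaga

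TRA2B (chr3:185914558-185938103, minus strand), which activates exons through GAA-rich enhancers, gave a like picture. In Kelly after 3 days it read 425 and 408 CPM at 0 h, 305 and 361 at 3 h and 254 and 277 at 6 h, and after 6 days 338 and 334, 234 and 237 and 207 and 204. In NGP it went from 350.3 and 331 to 312 and 329 CPM after 3 days and from 295 and 279.8 to 222 and 253 CPM after 6 days. The log2 changes were -0.65 ± 0.09 (adjusted p = 4.53e-11) and -0.71 ± 0.09 (8.71e-13) in Kelly, and -0.09 ± 0.08 (0.409) and -0.28 ± 0.08 (0.00289) in NGP. The Kelly calls held without each library, and the NGP 6 days call was lost without replicate 1 at 6 h (-0.17, adjusted p = 0.186).

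SRSF3 (chr6:36594353-36605600, plus strand), which has the shortest coding sequence of the SR genes (495 bases), fell in Kelly and rose in NGP, where its sign turned with ERCC scaling (-0.42 and -0.82). In Kelly after 3 days it read 316 and 302 CPM at 0 h and 227 and 245 at 6 h, and after 6 days 234 and 222 and 146 and 156. In NGP it read 335 and 317 CPM at 0 h and 442 and 406 at 6 h after 3 days, and 266 and 283 and 308 and 338 after 6 days. No 0 h and 6 h groups overlapped. The log2 changes were -0.39 ± 0.09 (adjusted p = 0.000351), -0.59 ± 0.09 (4.09e-08), 0.38 ± 0.07 (1.28e-05) and 0.23 ± 0.07 (0.00788). The NGP 6 days call was lost without replicate 1 at 0 h (0.19, adjusted p = 0.0994) or replicate 2 at 6 h (0.19, 0.0990).

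The 3′ UTRs of SR genes had a median length of 2433 bases, against 1687 for the 21 hnRNP genes tested and with a model (1222 with the HNRNPCL genes) and 1018 for all genes. The AU-rich nonamer TTATTTATT, which is known from many short-lived mRNAs, was present in the 3′ UTR of 2 of 14 SR genes and 0 of 25 hnRNP genes, against 8.23% of 20020 transcripts (sense strand). It lies in SRSF3 (chr6:36603563-36603587, plus strand) and TRA2A (chr7:23504911-23504935, minus strand), shown with the nonamer in capitals because SRSF3 moved in opposite directions in the lines.
SRSF3: taaacaaaTTATTTATTtccacctt
TRA2A: gacaacccTTATTTATTacctagag
TRA2A, the paralog of TRA2B, gave 0.0042 ± 0.15 and 0.11 ± 0.15 over 6 h in Kelly and did not pass (adjusted p 0.69 or above). In NGP it passed as higher after 3 days on the main scale (0.35 ± 0.12, adjusted p = 0.0183), where no SR gene was higher with ERCC scaling. It did not pass after 6 days (0.28 ± 0.12, 0.0732). The other SR models searched, those of SRSF7 and TRA2B among them, lack the nonamer. Whether the nonamer bears on any of these changes was not tested, and a match describes only the letters.

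Other SR genes spread between these. SRSF4 gave -0.57 ± 0.12, -0.62 ± 0.12 and -0.25 ± 0.09, which passed, and -0.02 ± 0.09, which did not (adjusted p = 0.899); the NGP 3 days call was lost without replicate 1 at 0 h (-0.12, adjusted p = 0.441) or at 6 h (-0.24, 0.0820). SRSF2 passed only in Kelly at 3 days (-0.42 ± 0.15, adjusted p = 0.0287), and lost the threshold without either 0 h library (-0.40 and -0.43, 0.129 and 0.0821) or replicate 1 at 6 h (-0.33, 0.221). SRSF8, encoded by a retrogene related to SRSF2, passed as lower in Kelly and NGP at 6 days (-0.60 ± 0.23 and -0.70 ± 0.19, adjusted p = 0.0362 and 0.00224). Its Kelly call was lost without any 1 library (-0.51 to -0.69, adjusted p 0.0594 to 0.226), and its NGP call without replicate 1 at 0 h (-0.55, 0.0668) or replicate 2 at 6 h (-0.38, 0.214). SRSF9 and SRSF11 lay at the other end and rose in all 4 comparisons on the main scale, with negative values on the ERCC scale in all but Kelly at 3 days. SRSF9 went from 189 and 179.8 to 304 and 272 CPM in Kelly and from 114 and 109 to 197 and 189.5 CPM in NGP after 3 days, and its 4 log2 changes were 0.65 ± 0.09, 0.58 ± 0.09, 0.79 ± 0.10 and 0.27 ± 0.10. The last was lost without replicate 1 at 0 h (0.20, adjusted p = 0.253) or replicate 2 at 6 h (0.23, 0.154). SRSF11 went from 285 and 317 to 409 and 421 CPM in Kelly and from 284 and 291 to 391 and 379 CPM in NGP after 3 days, with log2 changes of 0.46 ± 0.08, 0.35 ± 0.08, 0.42 ± 0.07 and 0.33 ± 0.07 (largest adjusted p = 0.000303).

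**Figure D3:**
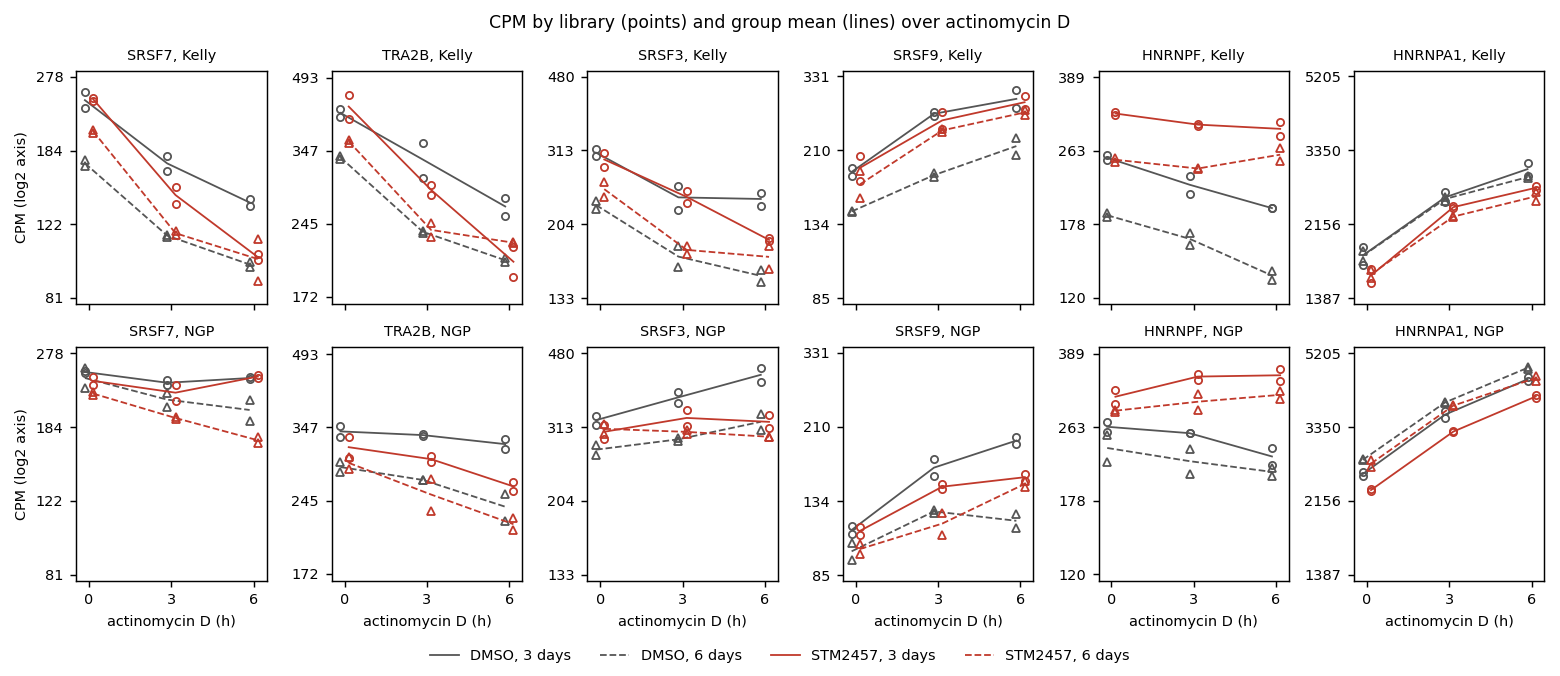
CPM on a log2 axis of single libraries (points) at 0, 3 and 6 h of actinomycin D for 6 members in Kelly and NGP, with lines through the means of 2 libraries for DMSO and STM2457 at 3 and 6 days. SRSF7 falls in Kelly and stays nearly level in NGP at 3 days, HNRNPA1 rises in both lines, and the DMSO lines of HNRNPF slope down.

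The actinomycin D change itself differed between the lines for several SR genes. In a joint fit of all 48 libraries, 4 of 14 SR genes and 2 of 22 hnRNP genes passed the test of NGP minus Kelly after 3 days in DMSO, all higher in NGP, against 1.59% of 17343 genes (1.12% higher, 0.473% lower). After 6 days the counts were 4 and 2, again all higher in NGP, against 4.25% (2.54% higher, 1.71% lower). The counts depended on the scale. With RLE size factors 3 SR and 0 hnRNP genes passed after 3 days. With ERCC scaling 2 SR genes were higher and 1 lower after 3 days, and 0 hnRNP genes higher and 5 lower (7.36% of all genes, 57 higher and 1219 lower). After 6 days 6 SR and 12 hnRNP genes were higher and 0 lower with ERCC scaling (8.08% of all genes, 1208 higher and 194 lower). On the main scale SRSF3 differed by 0.78 ± 0.12 (adjusted p = 4.35e-06) after 3 days and 0.86 ± 0.12 (1.35e-07) after 6 days. SRSF7 differed by 0.79 ± 0.13 (2.28e-05) and 0.59 ± 0.13 (0.00122). For these 2 genes the calls held without each library in turn and with ERCC scaling (SRSF3 0.40 and 1.05, SRSF7 0.41 and 0.78). TRA2B differed by 0.57 ± 0.12 (0.00141) and 0.47 ± 0.12 (0.00707). Its 3 days call was lost with ERCC scaling (0.19, adjusted p = 0.373), and its 6 days call without NGP replicate 2 at 0 h (0.44, 0.0508) or at 6 h (0.37, 0.0864). SRSF4 passed after 6 days (0.63 ± 0.14, adjusted p = 0.00245), where it held without each library, and SRSF2 after 3 days (0.74 ± 0.20, 0.029), where it was lost without any 1 of 6 libraries (0.61 to 0.81, adjusted p 0.0618 to 0.191) and with ERCC scaling (0.36, 0.30).

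The median line difference was 0.43 for SR genes and 0.18 for hnRNP genes after 3 days, and 0.14 and 0.15 after 6 days, with no test between the families. On the ERCC scale these medians were 0.04 and -0.20 after 3 days and 0.33 and 0.34 after 6 days. The medians of all genes were -0.32 and 0.18 on that scale. Among hnRNP genes, HNRNPD (0.35 ± 0.09, adjusted p = 0.015) and HNRNPDL (0.31 ± 0.09, 0.0367) passed after 3 days, and their signs turned with ERCC scaling (-0.03 and -0.07). HNRNPD lost the threshold without any 1 of 4 libraries (0.26 to 0.35, adjusted p 0.0599 to 0.210) and HNRNPDL without any 1 of 6 (0.28 to 0.35, 0.0559 to 0.217). After 6 days HNRNPR (0.42 ± 0.09, adjusted p = 0.00139) passed and held without each library, and HNRNPAB (0.34 ± 0.10, 0.029) was lost without any 1 of 5 libraries (0.26 to 0.35, 0.0547 to 0.191). HNRNPA1 did not pass (0.09 ± 0.06 and 0.15 ± 0.06; adjusted p = 0.649 and 0.176), so its rise in either line was not shown to differ.

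**Figure D4:**
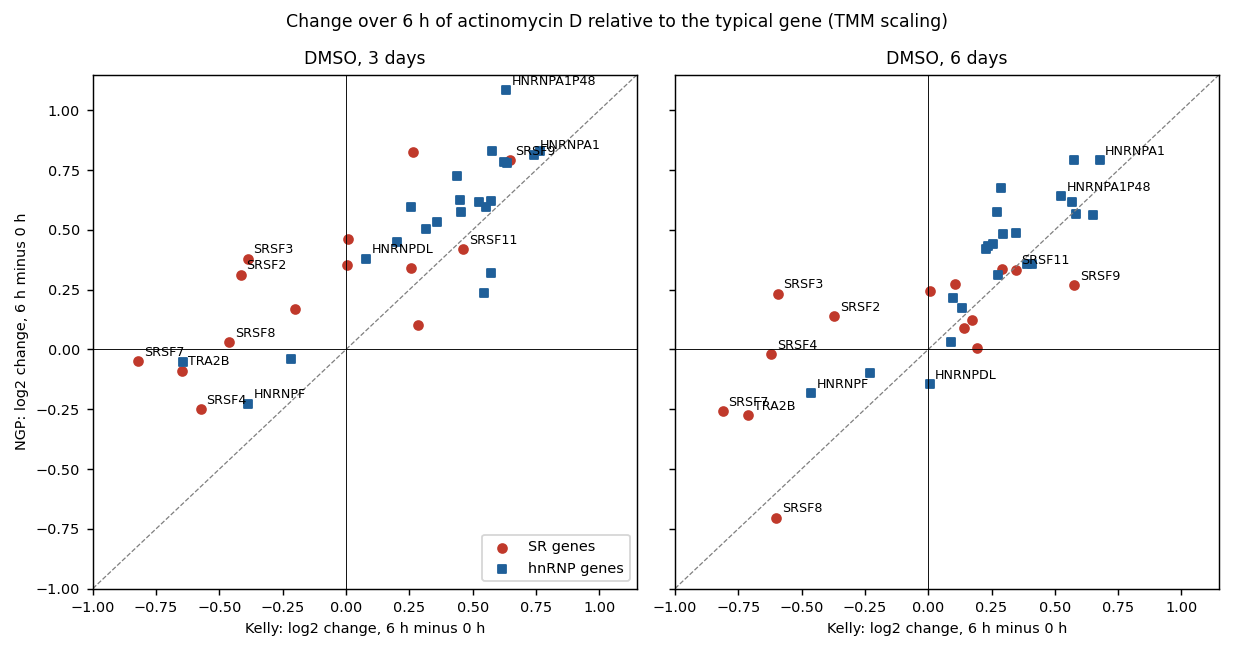
Log2 change over 6 h of actinomycin D in DMSO, Kelly on the x axis and NGP on the y axis, for the tested SR and hnRNP members at 3 and 6 days. Values are relative to the typical gene, and the dashed diagonal marks equal change in the lines. SRSF3, SRSF7 and TRA2B lie above the diagonal, and most hnRNP genes lie at positive values on both axes.

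In STM2457 the family medians also differed after 6 h, at 0.38, 0.52, 0.54 and 0.44 for hnRNP genes and -0.07, -0.05, 0.22 and 0.18 for SR genes. No test was run between the families, and values are again relative to the typical gene. Of 22 hnRNP genes 16, 16, 17 and 15 rose and none fell on this scale, against 0, 1, 1 and 1 higher and 20, 7, 9 and 11 lower on the ERCC scale. Of 14 SR genes 2, 3, 5 and 5 rose and 4, 4, 1 and 2 fell on the main scale. On the ERCC scale none was higher and 14, 11, 10 and 9 were lower. Of all genes, 75, 216, 99 and 122 were higher and 8312, 6056, 6938 and 6797 lower on the ERCC scale. These are out of 16759 genes tested in Kelly and 14661 in NGP. On the main scale 26.9, 26.4, 32.5 and 32.1% of all genes passed in either direction. Of all genes, 12.8, 12.4, 16.6 and 15.7% were higher and 14, 14, 15.9 and 16.4% lower on the main scale. At 3 h 14 of 22 hnRNP genes had risen in each comparison, with 1 lower in NGP at 6 days, and 1, 2, 3 and 3 SR genes had risen and 4, 4, 0 and 1 fallen (of all genes 17.8, 16.8, 20.5 and 18.8% in either direction, 8.53, 8.88, 10.6 and 10% higher and 9.28, 7.95, 9.86 and 8.73% lower). SRSF7 went from 207 and 204 to 112 and 89.1 CPM in Kelly after 6 days (-1.02 ± 0.11), with a change of -1.27 ± 0.11 after 3 days, and from 243 and 233 to 243 and 246 CPM in NGP at 3 days (0.03 ± 0.08, adjusted p = 0.806). TRA2B went from 405 and 453 to 189 and 219 CPM in Kelly at 3 days (-1.07 ± 0.09). The differences of these Kelly changes from those in DMSO did not pass. They were -0.43 ± 0.12 for TRA2B (adjusted p = 0.123) and -0.45 ± 0.15 for SRSF7 (0.287) at 3 days, and -0.21 ± 0.15 for SRSF7 (0.784) at 6 days. HNRNPF, which fell in DMSO, did not pass in any STM2457 group on the main scale (-0.12, 0.04, 0.16 and 0.12, adjusted p 0.102 or above). These values are relative to the typical gene. On the ERCC scale the hnRNP medians of the changes in STM2457 were -0.46, -0.05, -0.12 and -0.18.

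The test of the difference between the 6 h changes in STM2457 and DMSO passed for 4 members in all. It passed for none in Kelly at 3 days (5 had an unadjusted p under 0.05, DESeq2 called 1 and limma-voom 0), 2 hnRNP genes in Kelly after 6 days, 1 hnRNP gene in NGP after 3 days and 1 SR gene in NGP after 6 days, against 0.221, 0.424, 0.703 and 2.54% of all genes. These differences share their 0 h libraries with the STM2457 effect and with the changes within each treatment, so a high or low 0 h library enters all of them. HNRNPM (chr19:8444767-8489114, plus strand), a splicing regulator, went in Kelly at 6 days from 425 and 411 to 480.3 and 518 CPM in DMSO and from 439 and 443 to 787 and 691 CPM in STM2457. The 0 h values lay close together and the 6 h values apart, and the difference was 0.49 ± 0.09 (adjusted p = 0.000325), which held without each library. At 3 h the groups were apart as well, 544 and 514 CPM in DMSO and 658 and 654 in STM2457. Elsewhere it did not pass (Kelly 3 days -0.15 ± 0.09, NGP -0.03 ± 0.07 and 0.05 ± 0.07; adjusted p 0.73 or above).

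HNRNPF in Kelly at 6 days went from 248 and 253 to 266 and 249 CPM in STM2457, beside the fall in DMSO given above. The difference was 0.50 ± 0.13 (adjusted p = 0.0367) and was lost without any 1 of 7 of the 8 libraries (0.45 to 0.53, adjusted p 0.0532 to 0.227). The other 3 differences had the same sign and did not pass: 0.27 ± 0.13 (adjusted p = 0.57), 0.39 ± 0.11 (0.0881) and 0.30 ± 0.11 (0.165), with Kelly at 3 days turning to -0.14 on the ERCC scale. HNRNPDL in NGP at 3 days rose in DMSO from 616 and 655 to 822 and 832 CPM and stayed at 703 and 701 and then 711 and 704 CPM in STM2457. That difference of -0.37 ± 0.08 (adjusted p = 0.00505) was lost without DMSO replicate 1 at 0 h (-0.32, 0.0933) and with ERCC scaling (-0.22, 0.278). SRSF8 in NGP at 6 days went from 55.0 and 44.9 to 37.9 and 23.1 CPM in DMSO and from 30.9 and 38.2 to 35.4 and 48.6 CPM in STM2457. The DMSO libraries lay above the STM2457 libraries at 0 h, and the 6 h groups overlapped. The difference of 0.98 ± 0.28 (adjusted p = 0.0306) was lost without any 1 of 4 libraries (0.66 to 0.84, adjusted p 0.193 to 0.303).

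Promoter sequence was searched because the lines are MYCN-amplified. In promoters from 250 bases before to 50 after the start site (RefSeq, GRCh38.p14), the palindrome CACGTG, the E-box bound by MYC proteins, MYCN among them, occurred in 7 of 23 hnRNP genes and 0 of 12 SR genes matched, against 7.44% of 27305 promoters. The 7 were HNRNPA3, HNRNPD, HNRNPDL, HNRNPH2, HNRNPH3, HNRNPM and HNRNPUL1, and the ones of HNRNPD, HNRNPDL, HNRNPH3, HNRNPM and HNRNPUL1 are shown because these 5 genes passed a test that involves STM2457 above.
HNRNPD (chr4:82374001-82374030, minus strand): gcgctctcgcgtCACGTGaccgggacgcgc
HNRNPDL (chr4:82430364-82430393, minus strand): agaggcccggggCACGTGcagaaaggagcc
HNRNPH3 (chr10:68331631-68331660, plus strand): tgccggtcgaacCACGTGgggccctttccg
HNRNPM (chr19:8444921-8444950, plus strand): gttgcgtcgggtCACGTGggcgcgcaggcg
HNRNPUL1 (chr19:41262568-41262597, plus strand): aacctctgggccCACGTGagtgtctgtccc
No binding was measured here, and the match describes these letters only.

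Genes that work with these families were counted in 6 lists, in the same order of comparisons and relative to the typical gene. Beside these counts, 1.68, 3.97, 3.7 and 7.99% of all genes passed under STM2457, and 14.4, 13.2, 19 and 18% rose and 15.6, 13.3, 18.4 and 18.7% fell over 6 h of actinomycin D in DMSO. Of 7 SR kinase genes none passed for STM2457. Over 6 h of actinomycin D in DMSO 1, 1, 2 and 1 of them rose and 2, 3, 3 and 4 fell. CLK3 (-2.25, -1.60, -1.51 and -1.36) and CLK1 (-0.80, -1.27, -1.49 and -1.47), kinases that phosphorylate SR proteins in the nucleus, fell in each comparison, with and without each library and with ERCC scaling. SMG8, a regulator of the SMG1 kinase in nonsense-mediated decay, also fell in each (-3.59, -2.11, -1.87 and -1.46).

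Of 19 genes of SR-related proteins 0, 1, 1 and 1 rose and 0, 0, 1 and 2 fell under STM2457, and 8, 5, 10 and 9 rose and 5, 5, 4 and 4 fell under actinomycin D. SCAF11 rose in NGP at 6 days (0.45, adjusted p = 7.97e-05), a call that held without each library and with ERCC scaling, and its rise at 3 days (0.31) was lost without any 1 library (0.27 to 0.35, adjusted p 0.0764 to 0.275). RNPS1, a component of exon junction complexes, gave -0.25 and -0.32 in NGP at 3 and 6 days, and its 3 days call was lost with ERCC scaling (-0.15, adjusted p = 0.431) and without any 1 library (-0.29 to -0.20, 0.0808 to 0.397). Its 6 days call was lost without STM2457 replicate 1 (-0.21, 0.195). Of 14 hnRNPs with other names (13 tested in Kelly), 0, 1, 0 and 1 rose and 1 fell in each comparison under STM2457. PCBP2, a poly(C)-binding protein also called hnRNP E2, passed as lower in Kelly (-0.29 and -0.22) and in NGP at 3 days (-0.20), with ERCC values of 0.11, -0.47 and -0.10. Its Kelly 3 days call was lost without STM2457 replicate 1 (-0.25, adjusted p = 0.0596). The Kelly 6 days call was lost without either DMSO library (-0.21 and -0.23, 0.0969 and 0.0615) or STM2457 replicate 2 (-0.21, 0.121), and the NGP call without DMSO replicate 2 (-0.17, 0.0965) or STM2457 replicate 1 (-0.18, 0.0958). Under actinomycin D, 10, 6, 10 and 9 of this list rose and 1 fell in each comparison, with medians of 0.34, 0.23, 0.44 and 0.30, beside 0.49, 0.28, 0.60 and 0.44 for the hnRNP members. PCBP1, an intronless relative of PCBP2, passed as lower in all 4 (-0.52, -0.27, -0.55 and -0.36), with the Kelly 6 days call lost without any 1 library (-0.30 to -0.24, adjusted p 0.0702 to 0.197) and the NGP 6 days call without replicate 1 at 0 h (-0.26, 0.0625) or at 6 h (-0.23, 0.102).

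Of 40 core spliceosome genes 0, 1, 0 and 4 rose and 0, 0, 5 and 0 fell under STM2457, and 17, 18, 24 and 24 rose and 6, 6, 2 and 4 fell over 6 h of actinomycin D. CDC5L, of the PRPF19 complex, rose in NGP at 6 days (0.49, adjusted p = 1.64e-05), with and without each library and with ERCC scaling (0.45). Of 19 neuronal splicing regulators, 17 tested, 0, 2, 0 and 4 rose and 0, 1, 0 and 0 fell under STM2457, and 3, 3, 8 and 5 rose and 0, 0, 1 and 1 fell under actinomycin D. MBNL3 rose in NGP at 6 days (0.69, adjusted p = 5.42e-08), with and without each library and with ERCC scaling (0.64). ELAVL4, a neuronal RNA-binding protein, gave 0.95 (Kelly) and 0.31 (NGP) after 6 days, and the Kelly call was lost without STM2457 replicate 2 (0.65, adjusted p = 0.145) and the NGP call without DMSO replicate 2 (0.0822, 0.842) or STM2457 replicate 1 (0.25, 0.302). Of 17 genes of nonsense-mediated decay none rose and 0, 1, 0 and 1 fell under STM2457, and 6, 7, 7 and 4 rose and 2, 2, 3 and 5 fell under actinomycin D.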

How the data were processed

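Poly(A) RNA-seq counts of 48 libraries (24 groups of 2) were used. Per the file headers, the authors deposited raw counts of read pairs per gene from featureCounts 1.5.3 with GENCODE release 33 protein-coding genes and 92 ERCC sequences. The submitters' processing notes name HISAT2 2.1.0, Trimmomatic 0.36, FastQC 0.11.5 and Subread 1.5.3, and the build GRCh38. The step at which ERCC RNA was added is not given in the sources used here, so the ERCC scale was an alternative only.

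Counts were tested with edgeR 4.0.16 (R 4.3.3; quasi-likelihood, TMM scaling, filterByExpr with a minimum count of 10 and a minimum total of 15). Each line was fitted with its 24 libraries as 12 groups, and differences between lines in 1 fit of 48. ERCC rows stayed out of library sizes and tests. Adjusted p is the Benjamini-Hochberg value over all genes tested in a comparison, with 0.05 as the threshold, and CPM values use TMM library sizes. Alternatives were RLE, library size or ERCC scaling, no filter, DESeq2 1.42.0, limma-voom (limma 3.58.1), a replicate block, libraries of the same duration only, and leaving out each library (with the dispersion trend of the fit to all libraries). On simulated data, 61 and 69% of 2-fold changes were recovered in the comparison of STM2457 with DMSO at 3 days in Kelly (16759 genes) and NGP (14661 genes), and 80% of 4-fold changes in both, with 4.08 and 1.97% of calls false. No change under 2-fold was simulated, while the STM2457 effects of members ran from -0.56 to 0.63 in log2 units. Recovery of changes of that size was not measured.

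The members and lists were chosen with earlier results of these data known. Members with full values were those with the most calls for the STM2457 effect or its differences and those with the lowest and highest mean actinomycin D change. SRSF2, SRSF3, HNRNPD, HNRNPH1 and the other called members outside that rule were named after their values were seen. Values with 2 libraries a group rest on the spread shared over a line's groups.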

Additional observations from a re-analysis of the deposited data

Results flagged for a closer look

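A test of the difference itself singled out 19 results, in which the same contrast gave unlike values in 2 durations or 2 cell lines. The STM2457 effect at 6 days minus that at 3 days, in log2 units, was 0.27 for HNRNPA2B1 in Kelly. In NGP it was 0.27 for HNRNPD, 0.26 for HNRNPM, 0.33 for HNRNPR, 0.42 for SRSF4 and -0.58 for SRSF6. The STM2457 effect of HNRNPR at 6 days was higher in NGP than in Kelly by 0.33. The 6 h actinomycin D change in DMSO was higher in NGP than in Kelly after 3 days for HNRNPD (0.35), HNRNPDL (0.31), SRSF2 (0.74), SRSF3 (0.78), SRSF7 (0.79) and TRA2B (0.57). After 6 days it was higher for HNRNPAB (0.34), HNRNPR (0.42), SRSF3 (0.86), SRSF4 (0.63), SRSF7 (0.59) and TRA2B (0.47). SRSF3, SRSF7 and TRA2B appear at both durations.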

How the results depend on the processing

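Among counts of members past the threshold, and apart from leaving out libraries, ERCC scaling moved the most (13). DESeq2 moved 7, library size alone 5 and RLE 2, and the cause was not tested. A count that moved little could still turn direction. For STM2457 in Kelly at 6 days, hnRNP calls went from 7 higher and 1 lower to 0 higher and 7 lower with ERCC scaling. ERCC scaling moved the STM2457 count from 4 to 28 in Kelly at 3 days and from 5 to 3 in NGP at 6 days, the actinomycin D count from 22 to 36 in DMSO (Kelly 6 days) and from 22 to 34 in STM2457 (Kelly 3 days). It moved the counts of the difference between treatments from 0 to 25, 2 to 33, 1 to 2 and 1 to 23. Of all genes, 14.4, 30.0, 1.08 and 17.7% passed there on the ERCC scale, 43, 5013, 154 and 2564 as higher and 2375, 20, 4 and 28 as lower. The members called were all lower in Kelly at 3 days and all higher in the other comparisons. Counts of the duration difference went from 1 to 31 in Kelly and 5 to 2 in NGP (23.9 and 2.52% of all genes). Those of the line difference went from 0 to 14 and 1 to 3 for STM2457 (3.71 and 2.81%) and 6 to 18 for actinomycin D at 6 days (8.08%). Library size alone gave 5 for 8 (STM2457, Kelly 6 days), 14 for 22 (actinomycin D in DMSO, Kelly 6 days), 0 for 1 and 2 for 5 (duration, Kelly and NGP) and 2 for 1 (difference between treatments, NGP 3 days). RLE gave 7 for 4 (STM2457, NGP 3 days) and 3 for 6 (line difference of actinomycin D, 3 days). DESeq2 gave 13 for 4 (STM2457, NGP 3 days), 1 for 0, 2 for 1 and 3 for 1 (difference between treatments in Kelly 3 days, NGP 3 days and NGP 6 days), 7 for 1 and 9 for 5 (duration) and 2 for 1 (line difference of STM2457, 6 days). limma-voom gave 2 for 4 (STM2457, Kelly 3 days), and 1 for 2 and 0 for 1 (difference between treatments, Kelly and NGP 6 days). No filter gave 2 for 1 (difference between treatments, NGP 6 days) and 3 for 5 (duration, NGP). Libraries of the same duration gave 8 for 4 (STM2457, NGP 3 days), and 1 for 2 and 2 for 1 (difference between treatments, Kelly 6 days and NGP 3 days).

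Same-numbered replicates did not deviate together (r from -0.0444 to 0.0272, 0 of 15 pairs of groups over 0.1 in each line and duration). The replicate block moved the count of the difference between treatments in NGP at 3 days from 1 to 2, adding HNRNPF (0.39, adjusted p = 0.0496), and gave HNRNPF -0.18 (adjusted p = 0.0490) over 6 h of actinomycin D in NGP at 6 days.

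ERCC scaling turned the sign of some members whose values were printed. Examples of such members are listed here, and the list is not complete. For the actinomycin D change in DMSO these were in Kelly 3 days HNRNPDL -0.36, in Kelly 6 days HNRNPA1 -0.60, HNRNPA1P48 -0.75, HNRNPDL -1.27, HNRNPLL -1.18, SRSF11 -0.93, SRSF9 -0.70, in NGP 3 days HNRNPDL -0.42, SRSF11 -0.38, SRSF2 -0.49, SRSF3 -0.42, SRSF8 -0.77, SRSF9 -0.0109, in NGP 6 days HNRNPA1 -0.26, HNRNPA1P48 -0.41, HNRNPLL -1.02, SRSF11 -0.72, SRSF2 -0.91, SRSF3 -0.82, SRSF9 -0.78. For the line difference of the actinomycin D change in DMSO these were in 3 days HNRNPA1 -0.29, HNRNPD -0.0294, HNRNPDL -0.0668. For the STM2457 effect these were in Kelly 3 days HNRNPA1 0.23, HNRNPDL 0.39, HNRNPH1 0.0549, in Kelly 6 days HNRNPA2B1 -0.0917, HNRNPDL -0.00043, HNRNPUL1 -0.0245. For the duration difference of the STM2457 effect these were in Kelly HNRNPA2B1 -0.38, HNRNPR -0.64.

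Without each library in turn, the STM2457 counts were 1 to 2, 2 to 3, 1 to 3 and 1 to 4, the actinomycin D counts 21 to 25, 20 to 21, 23 to 26 and 20 to 24 in DMSO and 20 to 22, 21 to 25, 20 to 22 and 21 to 22 in STM2457. The counts of the difference between treatments were 0 to 1, 1 to 2, 0 to 1 and 0 to 2, of the duration difference 0 to 2 in Kelly and 1 to 3 in NGP, and of the line difference 0 and 0 to 1 for STM2457 and 3 to 6 and 5 to 6 for actinomycin D. The SR minus hnRNP median of the STM2457 effect ranged from 0.0735 to 0.185, -0.0235 to 0.0512, 0.0612 to 0.197 and -0.0938 to 0.0060, and that of the actinomycin D change from -0.665 to -0.486, -0.308 to -0.212, -0.342 to -0.254 and -0.381 to -0.250. The lowest depth was 11139550 read pairs in genes, and 2 libraries a group limit the precision.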
